A study of Mus musculus with 23 samples.

Results

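The growth hormone, STAT5 and dimorphism regulators described here are 10 genes of mouse liver: the receptor Ghr, the transcription factors Stat5a and Stat5b, the feedback inhibitors Socs2 and Cish, the secreted products Igf1 and Igfals, and the regulators Bcl6, Cux2 and Trim24. They were chosen by name. A gene counted as measured where the platform annotation gave a probe set exactly 1 symbol, and the brightest such probe set, by mean log2 intensity, stood for the gene. All 10 were measured, by 12 of the 24478 probe sets with exactly 1 symbol, which cover 19147 genes. Stat5b and Cux2 have 2 probe sets each and the other genes 1.

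The series profiled total liver RNA of 23 mice on 1 array each, to ask which transcripts differ when P2ry13 is ablated. P2ry13, also named GPR86, encodes a P2Y receptor for ADP. The groups were 6 female wild-type (WT) mice, 6 female GPR86 knockout (KO) mice, 5 male WT mice (numbered 2 to 6) and 6 male KO mice. The sources used here state no strain, age, feeding or time of collection, nor which part of the gene was removed and in which cells.

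Growth hormone from the pituitary binds its receptor on hepatocytes and activates the kinase JAK2, which phosphorylates STAT5A and STAT5B. These enter the nucleus and induce the growth factor gene Igf1, its carrier gene Igfals and the inhibitors Socs2 and Cish, which damp the same receptor. In rodents, males secrete the hormone in pulses and females more continuously, and many sex differences of liver expression follow from that pattern. BCL6 is a repressor whose sites resemble those of STAT5, CUX2 is a repressor known from female liver, and TRIM24 is a cofactor of nuclear receptors.

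The sample labels were checked first. Over the groups, P2ry13 lay between 5.06 and 5.34 (log2 intensity) on the 12 KO arrays and between 5.80 and 6.42 on the 11 WT arrays, so the genotypes did not overlap. The place of its probe set relative to the removed part is not stated. Xist, the X-silencing RNA, lay between 8.42 and 9.78 on female arrays and between 4.14 and 5.22 on male arrays. The median linear intensity of an array was 19.5 to 21.1. The 5 hepatocyte markers measured, of 8 listed, summed to between 15.6 and 15.9 (log2) on every array. The 4 Y-linked probe sets read 2.53 to 3.69 on the female arrays, which shows where signal without transcript lay for those probe sets. An adjusted p is from limma with 1 mean per group and Benjamini-Hochberg adjustment over 38385 probe sets, and 0.05 was the threshold. "Not overlapping" means that every array of 1 group lay beyond every array of the other. Precision is limited by the number of arrays.

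The STAT5 family binds DNA at TTCNNNGAA, a sequence that reads the same on both strands, and BCL6 binds sites of similar letters. A search for TTCNNNGAA, the only motif searched, in the RefSeq promoter windows (GRCm38.p6, 300 bases each, 250 before and 50 after an annotated start) found windows for 9 of the 10 genes, all but Socs2. Of their 17 windows, 5 held the motif, in 3 genes: Bcl6, Cish and Igfals. Over the whole table, 2726 of 32851 windows (8.3%) held it, and 2582 of 27025 genes (9.55%) had it in a window. A match is a description of the letters and not evidence of binding. The windows with matches are printed 5' to 3' on the strand of the gene, without the bases after the start except for 20 in Cish, and capitals mark TTCNNNGAA.
Cish, chr9:107296409-107296678, plus strand: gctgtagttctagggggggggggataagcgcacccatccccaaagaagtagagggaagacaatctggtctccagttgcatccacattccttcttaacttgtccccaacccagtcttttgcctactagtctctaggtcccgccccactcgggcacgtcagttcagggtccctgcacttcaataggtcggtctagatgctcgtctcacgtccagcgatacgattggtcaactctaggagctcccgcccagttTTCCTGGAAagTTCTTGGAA
Bcl6, chr16:23981284-23981533, minus strand: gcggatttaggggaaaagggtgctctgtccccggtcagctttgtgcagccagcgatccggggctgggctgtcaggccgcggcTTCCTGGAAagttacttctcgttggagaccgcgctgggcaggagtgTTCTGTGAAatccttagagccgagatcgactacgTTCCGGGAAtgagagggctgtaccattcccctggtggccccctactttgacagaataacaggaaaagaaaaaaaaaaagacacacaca
Bcl6, chr16:23988853-23989102, minus strand: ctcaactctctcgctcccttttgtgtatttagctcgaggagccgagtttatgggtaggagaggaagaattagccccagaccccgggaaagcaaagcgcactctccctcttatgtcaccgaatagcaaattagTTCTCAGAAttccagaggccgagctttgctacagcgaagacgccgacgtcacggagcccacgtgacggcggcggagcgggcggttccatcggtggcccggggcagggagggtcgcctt
Igfals, chr17:24877981-24878230, plus strand: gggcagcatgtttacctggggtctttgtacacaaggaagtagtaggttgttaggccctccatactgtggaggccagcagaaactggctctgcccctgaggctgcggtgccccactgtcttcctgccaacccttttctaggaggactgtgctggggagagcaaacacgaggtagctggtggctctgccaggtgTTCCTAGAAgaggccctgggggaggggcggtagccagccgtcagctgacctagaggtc
Igfals, chr17:24877594-24877843, plus strand: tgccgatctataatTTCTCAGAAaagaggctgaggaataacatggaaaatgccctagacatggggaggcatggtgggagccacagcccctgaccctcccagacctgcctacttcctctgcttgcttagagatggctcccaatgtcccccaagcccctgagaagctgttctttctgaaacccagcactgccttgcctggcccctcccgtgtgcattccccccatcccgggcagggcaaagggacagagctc
All 5 windows with the motif are shown, and the expression of their genes played no part in that choice. The Cish window holds the motif at positions 1 and 12, counted from the first transcribed base. The first Bcl6 window, upstream of a start inside the gene's span, holds 3, beginning 168, 122 and 88 bases before that start. Windows with 2 or more were 150 of 32851 (0.457%) and windows with 3 or more 11 (0.033%). The second Bcl6 window holds 1, at 118 bases before the start, and the Igfals windows 1 each, at 58 and 236 bases. Windows of Ghr, Stat5a, Stat5b, Igf1, Cux2 and Trim24 held none, which says only that these letters are not in those windows.

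Between the sexes, Trim24 and Cux2 were higher in females of both genotypes, without overlap, and Igfals was higher in females of both genotypes with overlap. Stat5a and Igf1 were higher in females among KO mice. In WT liver 3 of the 10 genes passed, all higher in females, against 4.25% of all probe sets (2.54% higher in females). In KO liver 5 of 10 passed, all higher in females, against 4.85% of all probe sets (3.21% higher in females). Groups did not overlap for 2 of the 10 in WT and 4 of the 10 in KO, against 3.86% and 3.38% of all probe sets. The median female minus male difference of the 10 genes was 0.32 (log2) in WT and 0.44 in KO, and over all probe sets it was -0.01 and -0.02. The difference of the sex effects between genotypes, which equals the difference of the KO effects between sexes, passed for 0 of the 10 genes (limma, 0 also at an unadjusted p under 0.05), so no gene is shown to differ between the sexes in KO liver alone.

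**Figure D1:**
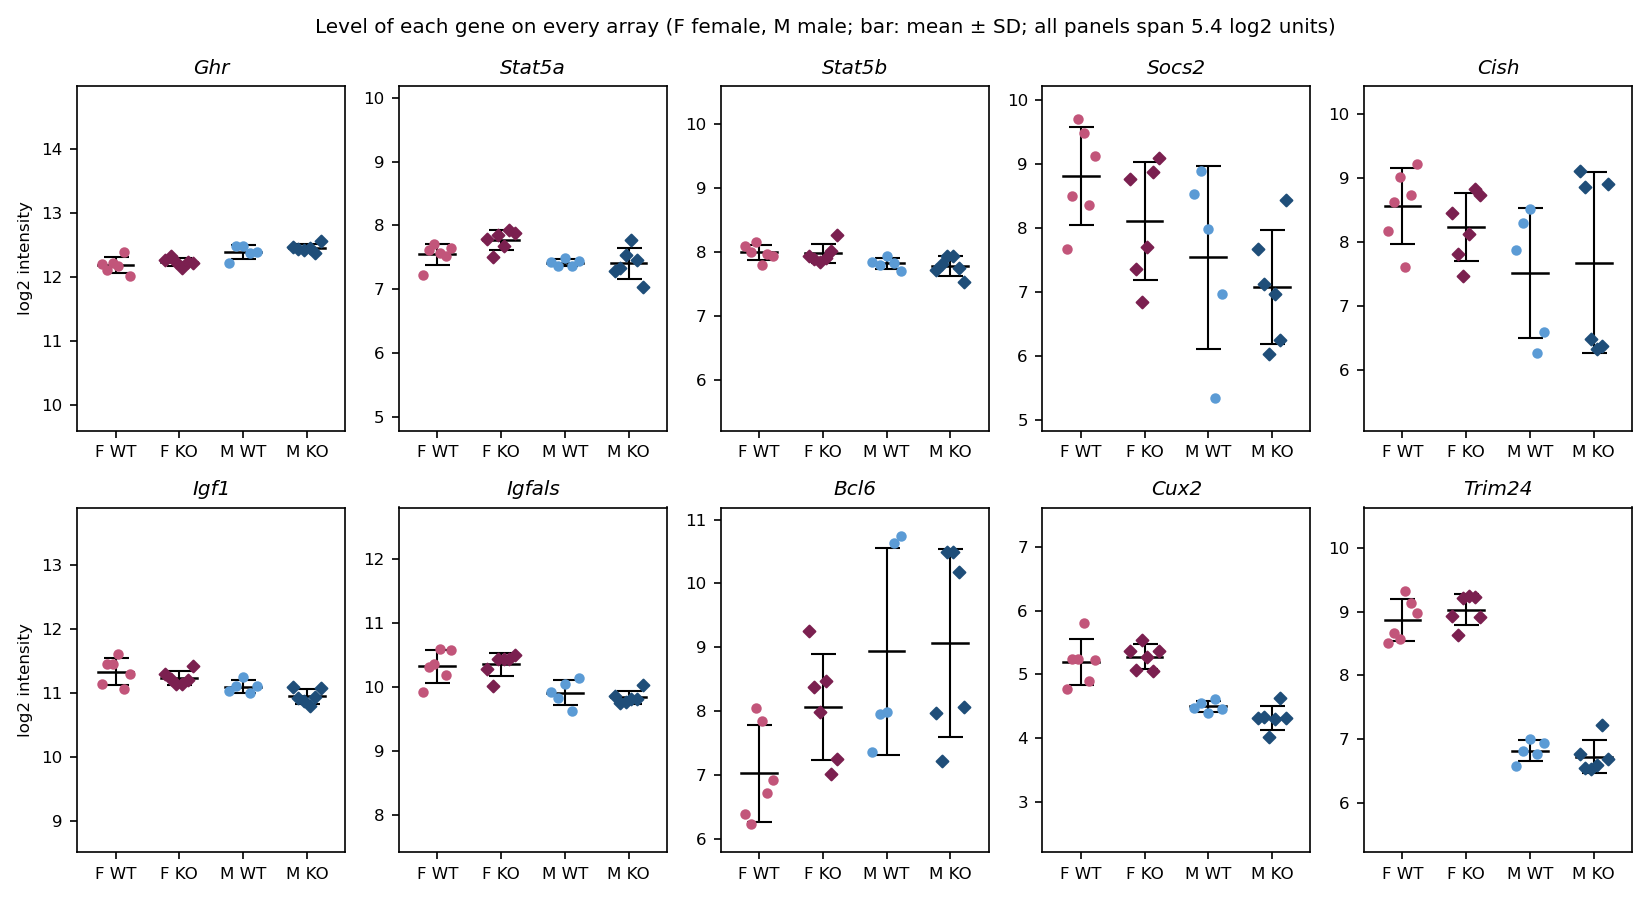
Level of each gene on every array as log2 intensity (vertical axis, each panel spanning 5.4 log2 units), by group (F female, M male), with the mean and SD as bars. Trim24 and Cux2 separate by sex, while Bcl6, Cish and Socs2 spread widely within groups.

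Among these genes Trim24, the nuclear receptor cofactor, differed most by sex. In WT livers the 6 females read 8.51, 8.67, 8.56, 9.32, 9.13 and 8.98 (log2 intensity, in the order of the replicate numbers, as in all such lists), and the 5 males read 6.58, 6.82, 7.003, 6.77 and 6.94. KO females lay between 8.63 and 9.24, with a median of 9.07, and KO males between 6.54 and 7.23, with a median of 6.64. Every female array lay above every male array. The female level was 4.12-fold higher in WT (difference of log2 levels 2.04, SE 0.14, adjusted p = 5.33e-11) and 4.92-fold higher in KO (2.30, SE 0.14, adjusted p = 8.2e-13), and it passed in every alternative run. Trim24 lies on chromosome 6, at 37870811 to 37968445 in GRCm38.p6.

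Cux2, the repressor known from female liver, had the same order of groups at a dimmer probe set. Female WT arrays lay between 4.78 and 5.80 (median 5.23) and female KO arrays between 5.05 and 5.55 (median 5.32). Male WT arrays read 4.48, 4.56, 4.40, 4.61 and 4.46, and male KO arrays lay between 4.02 and 4.63 (median 4.32). No female array reached down to a male array of its genotype. The female level was 1.62-fold higher in WT (0.70 on the log2 scale, SE 0.13, adjusted p = 0.000998) and 1.94-fold higher in KO (0.96, SE 0.12, adjusted p = 4.57e-06). In WT the call ended in the plain analysis of variance, fitted to the compared groups alone and without limma's moderation (adjusted p = 0.0778). The male values lie above the Y-linked range on female arrays but within or below the 4.14 to 5.22 that Xist read on male arrays, so these data do not show that the male signal is Cux2 transcript, and the fold can understate the difference. A second Cux2 probe set had group means of 3.34 to 3.56, within that Y-linked range, and its differences of 0.16 in WT and 0.19 in KO did not pass.

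Igfals encodes the acid-labile subunit that holds IGF1 in its circulating complex. WT females read 9.92, 10.32, 10.36, 10.60, 10.18 and 10.58, and WT males read 9.93, 9.83, 10.04, 9.63 and 10.14. KO females lay between 10.02 and 10.50 (median 10.44) and KO males between 9.75 and 10.03 (median 9.81). Most female arrays, 5 of 6 in each genotype, lay above all male arrays. The difference was 0.41 in WT (SE 0.11, adjusted p = 0.0262) and 0.52 in KO (SE 0.10, adjusted p = 0.002). In WT it lost the call without female WT replicate 4 (0.36, adjusted p = 0.075), female WT replicate 6 (0.36, 0.0703), or male WT replicates 2 (0.42, 0.0516), 3 (0.39, 0.0616) or 5 (0.34, 0.0967). It was also lost with array weights (0.36, adjusted p = 0.0633), with only the groups compared (0.41, 0.0794) and in the plain analysis of variance (0.41, 0.207). The KO call passed in every alternative run.

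Igf1, the growth factor made by hepatocytes under growth hormone, was higher in KO females than in KO males. KO females lay between 11.14 and 11.43 (median 11.22) and KO males between 10.79 and 11.09 (median 10.93), with no overlap. The difference was 0.29 (SE 0.08, 1.22-fold, adjusted p = 0.0424). In WT, females read 11.14, 11.46, 11.45, 11.62, 11.06 and 11.31 and males 11.04, 11.12, 11.25, 10.997 and 11.11, which overlap, and the difference of 0.24 (SE 0.09, adjusted p = 0.143) did not pass. The KO call was lost under quantile normalization (0.26, adjusted p = 0.0808) and with the replicate number as a block (adjusted p = 0.0629). It was also lost without female KO replicate 1 (0.28, adjusted p = 0.0826), 2 (0.29, 0.0624), 5 (0.29, 0.0649) or 6 (0.25, 0.109), and without male KO replicate 2 (0.28, 0.0795), 3 (0.27, 0.0871), 4 (0.26, 0.0999) or 5 (0.29, 0.0728).

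Of the transcription factors downstream of the receptor, Stat5a differed between the sexes in KO liver. KO females read 7.79, 7.50, 7.85, 7.69, 7.92 and 7.88 and KO males 7.29, 7.33, 7.53, 7.77, 7.46 and 7.04, so 4 of 6 females lay above all males. The difference was 0.37 (SE 0.10, 1.29-fold, adjusted p = 0.023), and in WT it was 0.13 (SE 0.10, adjusted p = 0.576). The KO call was lost without female KO replicate 5 (0.34, adjusted p = 0.0653) or 6 (0.34, 0.0536), or male KO replicate 1 (0.34, 0.0569), 2 (0.35, 0.0526) or 6 (0.29, 0.073), with only the groups compared (0.37, 0.0621) and in the plain analysis of variance (0.37, 0.155). Stat5b, its neighbour on chromosome 11 and the more abundant form in liver, lay between 7.80 and 8.26 in the females and between 7.53 and 7.94 in the males. Its differences of 0.17 in WT (SE 0.08, adjusted p = 0.308) and 0.20 in KO (SE 0.08, adjusted p = 0.187) did not pass, nor did those of its second probe set, 0.16 and 0.06.

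Ghr was the gene whose arrays agreed most closely, and its mean was lower in females. Female WT arrays lay between 12.01 and 12.39 (median 12.20) and female KO arrays between 12.14 and 12.34 (median 12.24). Male WT arrays lay between 12.22 and 12.49 and male KO arrays between 12.37 and 12.57. KO females and KO males did not overlap. The female minus male difference was -0.21 in WT (SE 0.07, adjusted p = 0.0975) and -0.22 in KO (SE 0.07, adjusted p = 0.057), and neither passed. It passed in KO under 6 alternatives, with adjusted p between 0.00712 under quantile normalization and 0.0356 with array weights, and also without female KO replicate 2 (-0.23, adjusted p = 0.0494), or, at -0.22, without female WT replicate 5 (0.0422), female WT replicate 6 (0.0426) or male WT replicate 2 (0.044). In WT it passed under quantile normalization (-0.23, adjusted p = 0.0328), with an intensity trend (0.0436) and without female WT replicate 5 (-0.25, 0.0385) or male WT replicate 2 (-0.25, 0.0472).

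The means of Socs2, Cish and Bcl6 were the farthest apart between the sexes in WT after Trim24, but their arrays spread so widely that none passed. Socs2 was higher in females by 1.27 in WT (SE 0.52, 95% interval 0.20 to 2.33, adjusted p = 0.197) and by 1.03 in KO (SE 0.50, adjusted p = 0.301). Cish was higher in females by 1.05 in WT (SE 0.49, adjusted p = 0.272) and by 0.56 in KO (SE 0.47, adjusted p = 0.63). Bcl6 was the opposite, with a female minus male difference of -1.91 in WT (SE 0.62, 95% interval -3.19 to -0.64, adjusted p = 0.0815) and of -1.01 in KO (SE 0.59, adjusted p = 0.433). Without male WT replicate 2 the WT difference of Bcl6 was -2.31 and passed (adjusted p = 0.0409).

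**Figure D2:**
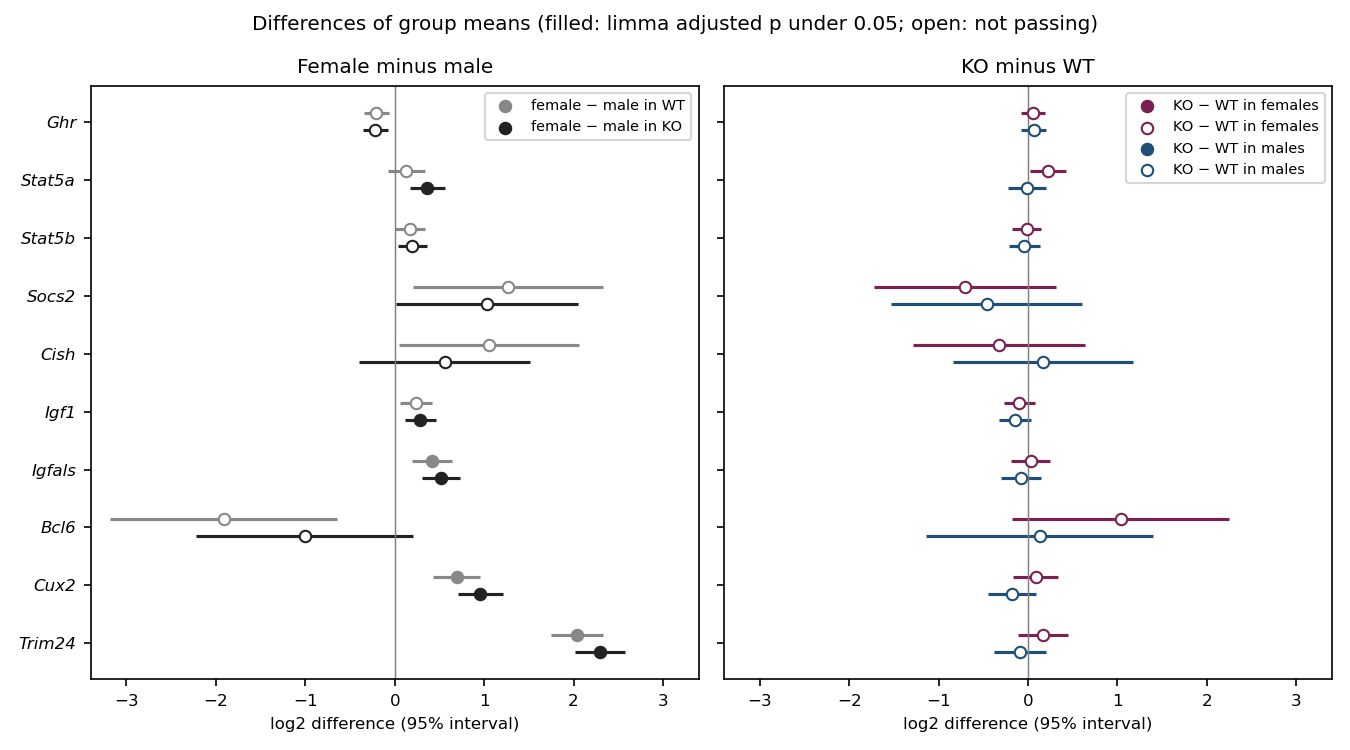
Differences of group means in log2 intensity (horizontal axis) with 95% intervals for each gene, female minus male at left and KO minus WT at right; filled points have a limma adjusted p under 0.05. Trim24 stands at 2.04 and 2.30, and no KO minus WT difference passed.

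Markers of other liver cells also differed by sex. Of the 6 Kupffer cell markers, 3 were higher in females in WT (Adgre1, Cd5l and Vsig4) and 4 in KO (those and Marco), and their summed level lay between 11.95 and 12.36 (log2) on female arrays and between 11.49 and 11.92 on male arrays, with no overlap. The sum of 6 sinusoidal endothelial markers lay between 11.27 and 11.54 in females and between 11.11 and 11.30 in males, and 1 marker, Stab1, passed in WT. Of 6 stellate cell markers, 2 (Col3a1 and Dcn) passed in KO, both higher in females. Of 4 lymphocyte markers, Cd3g was higher in WT females (0.61, adjusted p = 0.00218). In the opposite direction, the cholangiocyte marker Sox9, 1 of 4, was lower in WT females (-0.41, adjusted p = 0.0234), and the exocrine pancreas marker Cela1, 1 of 5, was lower in KO females (-0.51, adjusted p = 0.023). Their part in the sex differences of the 10 genes was not tested. In bulk liver RNA, fewer cells of a type and less RNA per cell cannot be told apart.

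None of the 10 genes passed between KO and WT livers in either sex. In females 0 of 10 passed (limma), against 0.0547% of all probe sets, and in males 0 of 10 (limma), against 0.0313%. An unadjusted p under 0.05 was found for 1 of the 10 in females, Stat5a, and for 2253 of 38385 probe sets, and in males for 0 of the 10 and for 2355 probe sets. No gene had groups that did not overlap, against 0.229% of probe sets in females and 0.555% in males. The median KO minus WT difference of the 10 was 0.04 in females and -0.06 in males, beside -0.01 and -0.00 over all probe sets. The difference of the KO effects between the sexes passed for 0.0104% of probe sets.

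For 7 of the 10 genes the intervals of these differences were narrow. In females, Stat5a was 0.22 higher in KO, with a 95% interval of 0.02 to 0.42 (adjusted p = 0.836). WT females read 7.23, 7.61, 7.71, 7.57, 7.53 and 7.65, and 4 of 6 KO females lay above all of them. Ghr, Stat5b, Igf1, Igfals, Cux2 and Trim24 differed in females by between -0.10 (Igf1) and 0.16 (Trim24), and in males by between -0.18 (Cux2) and 0.06 (Ghr). The widest of their intervals ran from -0.11 to 0.44 in females (Trim24) and from -0.38 to 0.20 in males (Trim24). For Igf1 in males, 4 of 6 KO arrays were lower than all 5 WT arrays, and the difference did not pass (-0.15, 95% interval -0.33 to 0.03, adjusted p = 0.835).

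Bcl6, Socs2 and Cish had wide intervals, within which changes of more than 2-fold cannot be told from none. Bcl6 in WT females read 6.39, 6.23, 8.05, 7.84, 6.72 and 6.92 and in KO females 9.26, 8.38, 7.99, 8.47, 7.02 and 7.25. Thus 3 of 6 KO females lay above all WT females, and the difference was 1.04 (SE 0.59, 95% interval -0.18 to 2.25, adjusted p = 0.879; exact permutation test, two-sided, unadjusted p = 0.0519). In males the Bcl6 difference was 0.13 (95% interval -1.14 to 1.40). Socs2 differed by -0.70 in females (95% interval -1.72 to 0.32) and by -0.46 in males (-1.53 to 0.60), and Cish by -0.33 (-1.29 to 0.63) and 0.17 (-0.84 to 1.18).

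Among animals of the same group, Bcl6, Socs2 and Cish were among the most variable transcripts measured. The pooled SD within groups was 1.21 (log2) for Bcl6, 1.01 for Socs2 and 0.95 for Cish, and the median over all probe sets was 0.15. Of 38385 probe sets, 5 had a larger SD than Bcl6, 12 than Socs2 and 16 than Cish. The other genes had SDs of 0.26 (Trim24), 0.23 (Cux2), 0.19 (Igfals), 0.17 (Stat5a), 0.14 (Igf1), 0.13 (Stat5b) and 0.10 (Ghr). For Ghr, 36391 probe sets varied more, but of the 184 probe sets within 0.5 log2 units of its mean 40.8% had a smaller SD, so its spread was near the middle for so bright a probe set. For Socs2 and Cish the shares with a smaller SD among probe sets of like brightness were 99.9% and 99.8%. Among males the highest array exceeded the lowest 11.7-fold for Socs2, 11.5-fold for Bcl6 and 7.23-fold for Cish, and among females 7.26-fold, 8.17-fold and 3.37-fold.

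**Figure D3:**
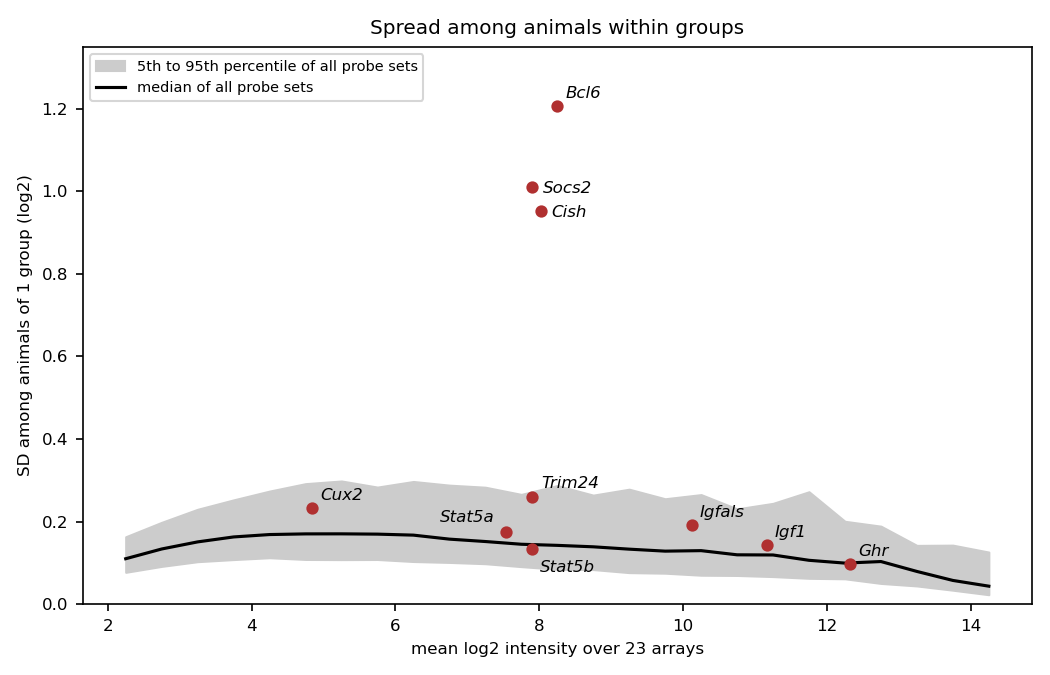
Pooled SD among animals of a group (vertical axis, log2) against mean log2 intensity over 23 arrays (horizontal axis) for the 10 genes, with the median and the 5th to 95th percentile of all probe sets. Bcl6, Socs2 and Cish lie at 1.21, 1.01 and 0.95, and the other 7 genes at 0.10 to 0.26.

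The male arrays fell into separate clusters for Cish, a SOCS-family inhibitor that STAT5 induces. Male WT arrays read 7.87, 8.30, 8.51, 6.26 and 6.59 in replicates 2 to 6, and male KO arrays read 9.12, 8.87, 6.49, 6.32, 6.37 and 8.91 in replicates 1 to 6. Thus 5 male arrays lay at 6.59 or below and 6 at 7.87 or above, with a gap of 1.28 between them. The low arrays came from both genotypes, male WT replicates 5 and 6 and male KO replicates 3, 4 and 5. The female arrays lay between 7.47 and 9.22, all above the low male arrays.

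Bcl6 divided the male arrays in the same way and in the opposite direction. Male WT arrays read 7.36, 7.96, 7.99, 10.63 and 10.75 in replicates 2 to 6, and male KO arrays read 7.97, 7.22, 10.49, 10.49, 10.18 and 8.06 in replicates 1 to 6. The 5 arrays at 10.18 or above were the same 5 that were low in Cish, and the other 6 lay at 8.06 or below, a gap of 2.11. No female array reached 10.18, and the highest was 9.26 (female KO replicate 1). The other 6 male arrays, from 7.22 to 8.06, lay within the range of the females, 6.23 to 9.26.

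Socs2, the other feedback inhibitor of the receptor, was low on the same arrays without a clear gap. Male WT arrays read 8.53, 8.89, 7.98, 5.34 and 6.97 in replicates 2 to 6, and male KO arrays read 7.67, 7.13, 6.04, 6.96, 6.25 and 8.44 in replicates 1 to 6. The 5 arrays low in Cish held the 5 lowest values, up to 6.97, and the next was 7.13. Female WT arrays read 7.67, 8.50, 9.71, 9.49, 8.37 and 9.14, and female KO arrays read 8.77, 7.36, 6.85, 7.71, 8.89 and 9.10. These 5 male arrays were seen as a cluster in the values themselves and are no group of the labels, so nothing was averaged or tested over them. Their array medians were 20.2 to 21.1, against 20.3 to 20.9 on the other male arrays, and their summed hepatocyte markers 15.68 to 15.85 against 15.65 to 15.86.

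**Figure D4:**
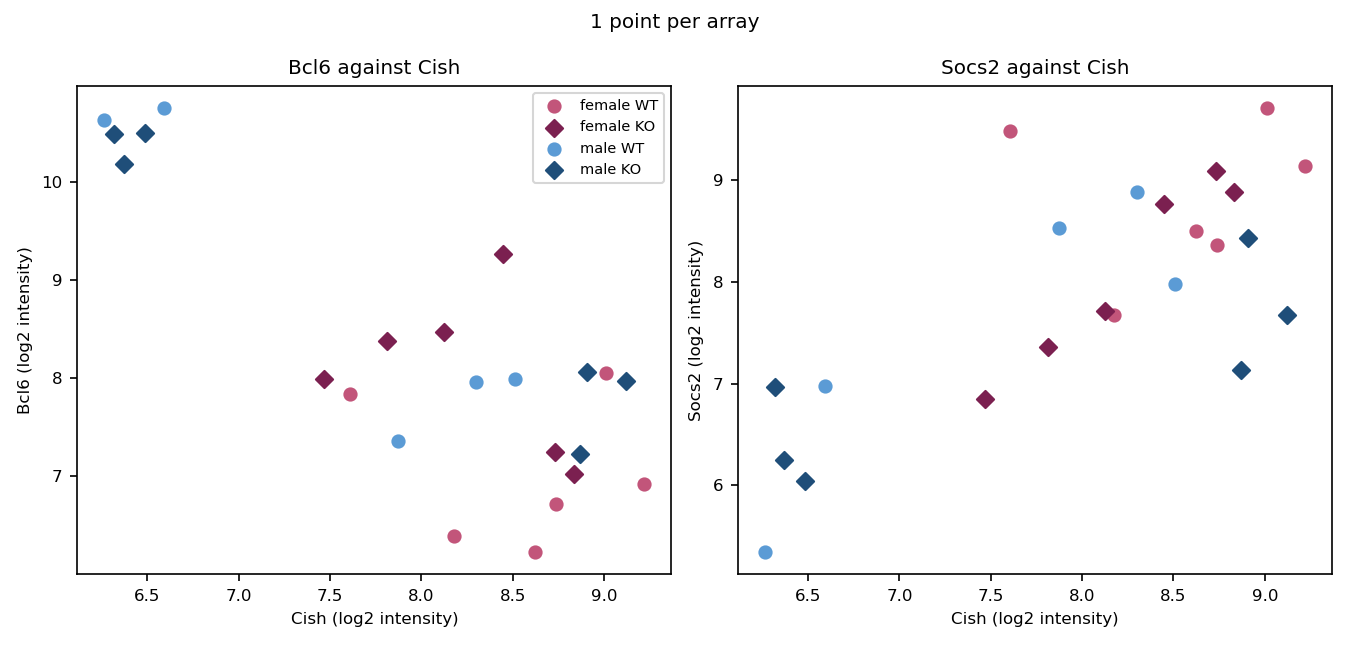
Bcl6 (left) and Socs2 (right) against Cish, all in log2 intensity, with 1 point per array coloured by group. The 5 male arrays with Cish at 6.59 or below have Bcl6 at 10.18 or above and Socs2 at 6.97 or below, and they include both genotypes.

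Whether the genes varied together was computed for 6 pairs, on deviations from group means. Because of the clusters no correlation over all arrays is given for those of the 6 pairs that hold Cish or Bcl6, and within the males those relations could not be tested. On the 12 female arrays, Cish and Socs2 had r = 0.57 (permutation p = 0.0667, adjusted 0.133) and rho = 0.61 (permutation p = 0.0523, adjusted 0.105), and r = 0.87 without the 2 arrays farthest in Cish. By group, r of this pair was 0.14 in female WT and 0.975 in female KO, with 6 arrays each. The 2 arrays left out were female WT replicate 4 and female KO replicate 3. Female WT replicate 4 lay below its group mean in Cish (-0.96) and above it in Socs2 (0.67). A difference between the genotypes in this relation was not tested. Cish and Bcl6 had r = -0.26 on the 12 female arrays (permutation p = 0.438, adjusted 0.438, and rho = -0.33, p = 0.319, adjusted 0.319). Without the 2 farthest arrays r was -0.10, so the opposite movement of the male arrays was not detectable among females. Stat5b and Cish had r = 0.62 (permutation p = 0.0393, adjusted 0.118; rho = 0.63, p = 0.0409, adjusted 0.105), and r = 0.55 without 2. Bcl6 and Cux2 had r = 0.46 (permutation p = 0.139, adjusted 0.167; rho = 0.41, p = 0.189, adjusted 0.264), and r = 0.53 without 2.

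Socs2 and Igf1, an inhibitor and a product of the same receptor, had a positive correlation over all 23 arrays. Their deviations had r = 0.57 (permutation p = 0.00311, adjusted 0.00622) and rho = 0.60 (p = 0.00504, adjusted 0.0101), and r = 0.54 without the 2 arrays farthest in Socs2. On the female arrays alone r was 0.67 (permutation p = 0.0143, adjusted 0.0857) and rho 0.67 (p = 0.0182, adjusted 0.105), and neither passed after adjustment. The male arrays low in Cish were also the lowest in Socs2. The values over 23 arrays therefore cannot tell a relation among animals from that cluster. Within groups, r of Socs2 and Igf1 was 0.729 in female WT, 0.729 in female KO, 0.456 in male WT and 0.682 in male KO. The cluster lies in the male groups only, and the values by group were not tested. Over all 23 arrays Igf1 and Igfals had r = 0.56 (permutation p = 0.0217, adjusted 0.0325) and rho = 0.51 (p = 0.028, adjusted 0.0421), with r = 0.47 without the 2 farthest arrays and 0.54 on female arrays (permutation p = 0.122, adjusted 0.167). By group, r of this pair was 0.709 in female WT, 0.094 in female KO, 0.637 in male WT and 0.674 in male KO.

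Other genes followed Cish closely. As a description of likeness, with no test, of 16696 genes compared those with the highest Pearson correlation with Cish over the 23 arrays were Phlda1 (0.91), Foxa2 (0.89), a pioneer factor of the liver, and Arid5b (0.88). By deviations from group means they were Phlda1 (0.90), Foxa1 (0.89), the relative of Foxa2, and Zfp655 (0.89). The labels give no batch or date of hybridisation, the arrays were scaled to each other, and the male clusters weigh in these values. On the 12 female arrays the deviations correlated with Cish at 0.82 for Phlda1, 0.81 for Foxa2, 0.76 for Foxa1, 0.65 for Zfp655 and 0.57 for Arid5b. Those arrays were among the 23 by which the genes were picked, so these values are no separate evidence. Phlda1 lay between 9.14 and 11.61 on male arrays and between 10.005 and 11.58 on female arrays. Its sex differences of 0.95 in WT (adjusted p = 0.157) and 0.76 in KO (adjusted p = 0.258) did not pass.

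Bcl6 had no equally close follower. By log2 values the nearest were Gpr33 (0.74), Cited2 (0.68), a transcriptional cofactor, and Tunar (0.68), and by deviations Prox1 (0.74), a hepatocyte and lymphatic transcription factor, Gpr33 (0.73) and Slc28a1 (0.71). Gpr33, Slc28a1 and Tunar lay between 3.23 and 4.52, near the range that Y-linked probe sets read on female arrays. Prox1 lay between 7.48 and 8.85 on male arrays and between 7.61 and 8.97 on female arrays, where its deviations correlated with those of Bcl6 at 0.51. The female arrays were also among those by which Prox1 was picked.

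**Figure D5:**
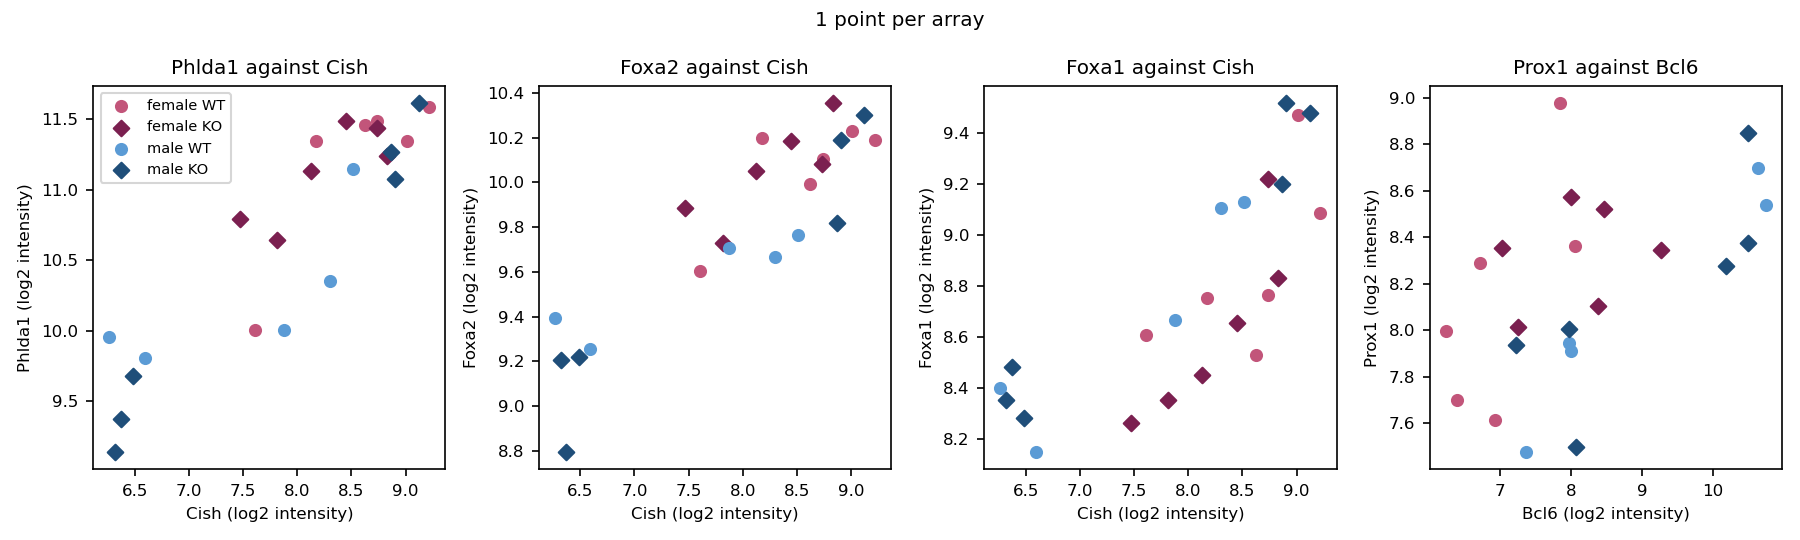
Phlda1, Foxa2 and Foxa1 against Cish and Prox1 against Bcl6, in log2 intensity, with 1 point per array coloured by group. These genes were picked for their correlation, and over 23 arrays Phlda1 followed Cish with r = 0.91.

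Since Cux2 itself separated by sex, the genes nearest to it over arrays of both sexes were in part chosen for a sex difference, which is given as a description. By log2 values the nearest were Ugt2b37 (0.92), a glucuronosyltransferase, Homer2 (0.92) and Nt5e (0.92), the ectonucleotidase CD73. Nt5e was higher in females by 2.43 in WT and by 3.19 in KO. With group means removed, the nearest were Homer2 (0.77), Polr1b (0.77), a subunit of RNA polymerase I, and Cyp3a16 (0.72), a female-biased cytochrome P450. On the 12 female arrays Polr1b (0.92), Homer2 (0.86) and Cyp3a16 (0.81) varied with Cux2. Polr1b itself did not pass between the sexes, with differences of 0.12 in WT (adjusted p = 0.675) and -0.08 in KO (adjusted p = 0.778).

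Of the other signalling partners of the receptor, 10 of 14 listed genes were measured and few differed. In WT 1 was higher in females, the phosphatase Ptpn1 (0.35, adjusted p = 0.0488), and that count was 0 in many of the fits without 1 array and in the plain analysis of variance. In KO the phosphatase Ptpn6 was higher in females (0.34, adjusted p = 0.01) and the SOCS-family gene Socs7 lower (-0.31, adjusted p = 0.032), and the count of 2 was 1 in the plain analysis of variance, with the replicate block and in many of the fits without 1 array. None passed for KO against WT in either sex, nor among the 11 genes of the IGF axis. In that axis 0 differed between the sexes in WT and 2 in KO, both higher in females: Igfbp3, the main carrier of IGF1 (0.50, adjusted p = 0.0178), and Igfbp7 (0.31, adjusted p = 0.00737). The count was 1 in the plain analysis of variance and without female KO replicate 2 or male KO replicate 3. Igfbp3 read 6.80 ± 0.30 in KO females and 6.29 ± 0.19 in KO males (SD, n = 6 each). In WT the differences were 0.27 for Ptpn6 (adjusted p = 0.081), -0.085 for Socs7 (0.708), -0.04 for Igfbp3 (0.926) and 0.20 for Igfbp7 (0.142). For Ptpn1 the difference in KO was -0.05 (limma adjusted p = 0.868). The difference of the sex effects between genotypes passed for 0 of the 10 partners and 0 of the 11 IGF axis genes (limma). No gene of these lists is therefore shown to differ between the sexes in 1 genotype alone.

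Hepatic transcription factors were measured for 16 of 18 genes. In WT 3 were higher in females and 1 lower, and in KO 3 and 2 (3 in all in the plain analysis of variance), with 0 passing for KO against WT in either sex. Tox, a nuclear protein of the HMG-box family, was higher in females by 1.59 in WT (SE 0.19, adjusted p = 1.68e-06) and 1.87 in KO (adjusted p = 2.66e-08). The oestrogen receptor gene Esr1 was higher by 1.75 (adjusted p = 6.85e-07) and 1.61 (adjusted p = 7.81e-07), and Nr1i3, the xenobiotic receptor CAR, by 0.54 (adjusted p = 0.00051) and 0.60 (adjusted p = 4.51e-05). Nr0b2, the corepressor SHP, was lower in KO females than KO males (-0.67, adjusted p = 0.00298), and in WT its difference of -0.38 did not pass (adjusted p = 0.168). The difference of the sex effects between genotypes passed for 0 of the 16 genes (limma). Cux1, the relative of Cux2, was lower in females, at -0.31 in WT (adjusted p = 0.0256) and -0.36 in KO (adjusted p = 0.0044); it was named after its values were seen.

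Of 12 further genes tied to hepatic STAT5 in the literature, 3 were higher and 2 lower in WT females than WT males, and 2 and 2 in KO. The fatty acid transporter Cd36 was higher in females by 1.12 in WT (adjusted p = 0.00451) and 1.30 in KO (adjusted p = 0.000383), and the lipoprotein receptor Vldlr by 0.74 (adjusted p = 0.000361) and 1.28 (adjusted p = 1.69e-08). The oxidase gene Nox4 was lower by -1.61 (adjusted p = 1.68e-07) and -2.15 (adjusted p = 1.2e-10), and the growth factor receptor Egfr by -0.90 (adjusted p = 2.12e-05) and -1.40 (adjusted p = 2.85e-09). None passed for KO against WT. The values in females were -0.60 for Nox4 (adjusted p = 0.474), -0.48 for Egfr (adjusted p = 0.342) and 0.50 for Vldlr (adjusted p = 0.257).

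Genes with known sex bias in liver, which the pattern of growth hormone is known to set, served as a reference for the 10. Of 19 male-biased genes measured, 18 were lower in WT females than WT males and 17 in KO, and of 22 female-biased genes 19 and 20 were higher, with 1 lower in each genotype. Elovl3, a male-biased fatty acid elongase, was lower in females by -4.88 in WT (adjusted p = 5.42e-22), and Cyp2b9, a female-biased cytochrome P450, was higher by 8.35 (adjusted p = 9.47e-28). For KO against WT in females, 2 male-biased genes fell, Hsd3b5 (-3.73, adjusted p = 1.7e-08) and Cyp2d9 (-0.80, adjusted p = 2.42e-05), and 3 female-biased genes rose, Sult2a1, Sult2a2 and Hao2, by 3.44, 5.00 and 2.64. In the plain analysis of variance, fitted to the compared groups alone and without moderation, none of these 5 calls held, with 0 genes of either list passing. The last 3 were named after their values were seen. In males 0 of both lists passed. The difference of the KO effects between the sexes passed for 1 male-biased gene, Hsd3b5 (-3.25, adjusted p = 0.00116), and for 3 female-biased genes (limma). It was not computed in the plain analysis of variance. The median KO minus WT difference in females was -0.21 over the male-biased and 0.39 over the female-biased genes, against 0.04 over the 10 regulators and -0.01 over all probe sets. On the same arrays, Trim24 and Cux2 differed between KO and WT females by 0.16 (adjusted p = 0.907) and 0.08 (adjusted p = 0.957).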

How the data were processed

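The authors deposited linear intensity values for 38385 probe sets on 23 liver arrays, computed by RMA, a method that scales arrays to each other, per the submitters' processing notes. Its version and settings are not stated. They were converted to log2 from the deposited intensities, with no further scaling. Groups and replicate numbers came from the titles. The design text gives separate mice per group.

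Gene names came from the platform annotation (24478 with 1 symbol, 65 with several, 13842 unnamed here), and 24237 were matched to RefSeq genes of GRCm38.p6 by Entrez ID; the array names no build, so coordinates are those of the RefSeq genes and windows. Each probe set was fitted over the 23 arrays with a mean for each group (limma 3.58.1, R 4.3.3; moderated tests with 19 residual degrees of freedom plus 7.61 from the prior). It was tested on simulated data. Errors of differences are limma's SEs, and errors of means are SDs. Pairs were tested by 100000 two-sided permutations within groups, adjusted over 6 pairs, and single genes by exact permutation. Plots used Python 3.11.15 with matplotlib 3.10.9.

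The 10 genes and the gene lists were chosen with earlier results of these data known. The naming rule took all 10 genes, up to 4 genes with the smallest p of each list, markers that passed, label checks and the 3 genes most correlated with Cux2, Bcl6 and Cish by each measure; clone names and predicted genes were left out. Analysing the pairs on female arrays alone, and looking at the spread of list genes, were chosen after seeing the data. Alternatives were quantile normalization, equal array medians, a filter on dim probe sets, the replicate number as a block, array weights, a robust variance with intensity trend, a plain analysis of variance, only the compared groups, averaged probe sets per gene and leaving out each array. The plain analysis of variance was also fitted to the compared groups alone. It had no moderation and fewer degrees of freedom than the main fit.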

Additional observations from a re-analysis of the deposited data

Results flagged for a closer look

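Within groups, 2 of the 40 sets of values examined (10 genes in 4 groups) had an array that stood apart from the rest by Dixon's test, and chance flags about 1 in 20. Stat5a read 7.23 in female WT replicate 1, the lowest of its group, and the nearest array read 7.53. Trim24 read 7.23 in male KO replicate 5, the highest of its group, and the nearest read 6.77.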

How the results depend on the processing

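In WT liver 3 of the 10 genes passed between the sexes, and 2 to 4 did in every alternative but the plain analysis of variance, where 1 did (Trim24). In KO liver 5 passed, and 4 to 6 did in the alternatives. Leaving out each array in turn gave 2 to 4 in WT and 3 to 6 in KO, with 3 without female KO replicate 5, female KO replicate 6 or male KO replicate 2. No setting run, single arrays left out included (0 to 0), had any of the 10 pass between KO and WT or in the difference of the KO effects. Deviations of same-numbered animals had correlations from -0.143 to 0.215, so no pairing by number was detected. The labels do not state whether the numbers pair animals, and low correlations cannot exclude it. With the replicate number as a block, 3 passed in WT and 4 in KO, where Igf1 was lost (adjusted p = 0.0629). On female arrays alone r was 0.571 for Cish and Socs2, -0.255 for Cish and Bcl6, 0.667 for Socs2 and Igf1, 0.542 for Igf1 and Igfals and 0.621 for Stat5b and Cish. Over all arrays r of Stat5b and Cish was too close to none for its sign to have a meaning, and the male clusters enter it. Fewer arrays enter the female values. Directions turned only among differences that did not pass. For KO against WT these were Stat5b in females with equal array medians (0.0026), Stat5a in males with the replicate block (0.0156) and Bcl6 in males with array weights (-0.30). For the difference of the KO effects it was Stat5b with array weights (-0.0118) or the mean of its probe sets (-0.0372). Leaving out single arrays gave, for KO against WT, -0.0722 to 0.0171 (Stat5b) and -0.0524 to 0.10 (Igfals) in females, and -0.26 to 0.58 (Bcl6), -0.14 to 0.44 (Cish), -0.0855 to 0.0606 (Stat5a) and -0.0743 to 0.007 (Stat5b) in males. For the difference of the KO effects it gave -0.0454 to 0.0337 (Ghr), -0.0046 to 0.11 (Igf1), -0.57 to 0.31 (Socs2) and -0.0299 to 0.0595 (Stat5b). The causes were not tested. For the lists, the plain analysis of variance called 0 of the 2 male-biased and 0 of the 3 female-biased genes for KO against WT in females. Signal limits Cux2, whose male level lay above the Y-linked range on female arrays but within or below the Xist range on male arrays.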

Other observations

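Among 49 measured pathway genes outside the 10, the spread within groups was largest for Onecut1, the hepatic transcription factor HNF6, which growth hormone is known to regulate. Its pooled SD was 1.01 (log2), and 13 of 38385 probe sets varied more. Male WT arrays read 7.90, 8.51, 8.19, 5.54 and 6.57 in replicates 2 to 6, and male KO arrays read 8.26, 8.16, 6.53, 6.66, 5.63 and 9.48 in replicates 1 to 6. The 5 lowest male values were on the arrays that were low in Cish and Socs2 and high in Bcl6. Female WT arrays lay between 7.14 and 8.50, and female KO arrays between 6.60 and 8.23. Onecut1 did not pass between the sexes (0.48 in WT, adjusted p = 0.714, and -0.19 in KO, adjusted p = 0.908) and was chosen after its values were seen. Foxa1 and Foxa2, also among the 49, had their 5 lowest male values on the same arrays, at 8.15 to 8.48 against 8.66 to 9.51 on the other male arrays for Foxa1 and 8.80 to 9.39 against 9.67 to 10.30 for Foxa2. The genes next to Onecut1 in spread, Cdkn1a and Igfbp1, did not divide the male arrays in this way. Cdkn1a, a cell cycle inhibitor, had an SD of 0.61 and read 5.84 to 7.40 in male WT and 6.33 to 7.07 in male KO, and Igfbp1, a binding protein of IGF1, had an SD of 0.54 and read 11.40 to 11.83 and 10.73 to 12.59.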
